A study of Drosophila melanogaster with 12 samples.

Results

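The genes described here build N-glycans, mucin-type O-glycans and glycosylphosphatidylinositol (GPI) anchors in salivary glands of Drosophila melanogaster prepupae. They were taken from the table of read counts by name: every gene whose FlyBase symbol starts with Alg, Pgant or PIG-, plus Mgat1, Mgat2, Mgat4a and C1GalTA. The rule found 46 genes of 17807 in the table, of which 13 act on N-glycans, 11 on O-glycans and 21 on GPI anchors. The remaining gene, Alg-2, is caught by its name alone, since it encodes a calcium-binding protein named after an apoptosis-linked gene, and it is in none of the 3 classes.

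Mutants were E93Δ12/E93Δ13 and controls +/E93Δ1, so the controls also had 1 mutant allele. Both genotypes had the w1118 fkh>GFP background, in which the fkh driver turns on GFP in the salivary gland, and were raised on cornmeal molasses food. The 12 libraries, 3 for each genotype and time, come from glands taken 12 or 14 h after pupariation. They serve to ask how loss of E93, an ecdysone-induced transcription factor, alters gene expression at these times. The labels do not say whether libraries of a group came from separate collections of animals, so p-values measure the spread between these samples, which may be technical.

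N-glycans are assembled sugar by sugar on the lipid dolichol at the endoplasmic reticulum, moved as a block onto asparagines of nascent proteins, and then trimmed and branched in the Golgi. Mucin-type O-glycans start with a single N-acetylgalactosamine that a Pgant enzyme places on serine or threonine, and C1GalTA adds galactose to make the core 1 structure; the glue that the salivary gland secretes is rich in such mucins. GPI anchors are built by PIG proteins in the endoplasmic reticulum and attached by a transamidase, which tethers proteins to the outer face of the membrane.

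Each library held 6977403 to 9497317 counts. The limit that a count of 0 allows was taken as 3 counts, and it covers counting error only. By library size alone, 3 counts are 0.316 to 0.43 CPM (counts scaled to library size). With the TMM scaling of the values printed below, 3 counts are 0.519 CPM in the 12 h control replicate 3. They are 0.281 CPM in the 14 h mutant replicate 3. Counts over E93 itself, written Eip93F in the annotation, averaged 4080 ± 222 CPM in the libraries labelled 12 h mutant against 1724 ± 482 in 12 h controls, and 1988 ± 32.7 CPM in 14 h mutants against 845 ± 61.4 in 14 h controls (SD, n = 3 each). Counts over the whole gene thus do not check the mutant label, and groups are called here as the labels call them. The 12 h control replicate 1 stood apart: on the first principal component it lay at -3.23, with the other 12 h controls at -55.2 and -62.1 and the 14 h controls at 60.4 to 64.4. Summed CPM of 8 gut epithelium markers was 206, 21.6 and 1.94 in 12 h mutants against 2.31 to 4.85 in 12 h controls, and 2.35, 100 and 6.74 in 14 h mutants against 1.26 to 2.58 in 14 h controls. Nearly all of it came from 3 smooth septate junction genes (mesh, Ssk and Tsp2A at 135, 46.5 and 21.2 CPM in 12 h mutant replicate 1 and 56.7, 31.5 and 12.1 CPM in 14 h mutant replicate 2), while the digestive enzyme genes and other markers (Jon65Aiii, alphaTry, betaTry, lab, Vha100-4) stood at 0 to 2.24 CPM in each library. The 10 salivary gland markers summed to 129 to 263 CPM over the 12 libraries and none of these 10 was at 0 in all of them.

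Of the 46 genes, 36 passed the filter on low counts, which were 12 N-glycan genes, the 11 O-glycan genes, 12 GPI anchor genes and Alg-2. CPM values are TMM-scaled, levels are compared between genes only per length, as RPKM (CPM per kilobase of exon), and a gene is called at an adjusted p under 0.05 in the edgeR quasi-likelihood test over 7584 genes. In 12 h mutants 0 of the 36 genes were higher than in controls and 4 lower: Alg7, C1GalTA, Pgant35A and PIG-S. Among all genes tested 15.8% were called at 12 h, 7.94% higher and 7.87% lower. In 14 h mutants 2 genes were higher, Pgant8 and Pgant4, and 2 lower, Alg7 and Pgant9, where 15.2% of all genes were called, 8.29% higher and 6.91% lower. The share called among the 36 was 11.1% at each time, so the set as a whole was called no more often than the genes around it. The median log2 fold change of the 36 was 0.08 at 12 h and -0.06 at 14 h, beside 0.01 and 0.05 over all genes tested. In bulk tissue, fewer cells of a type and less RNA per cell cannot be told apart in any of these differences.

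**Figure D1:**
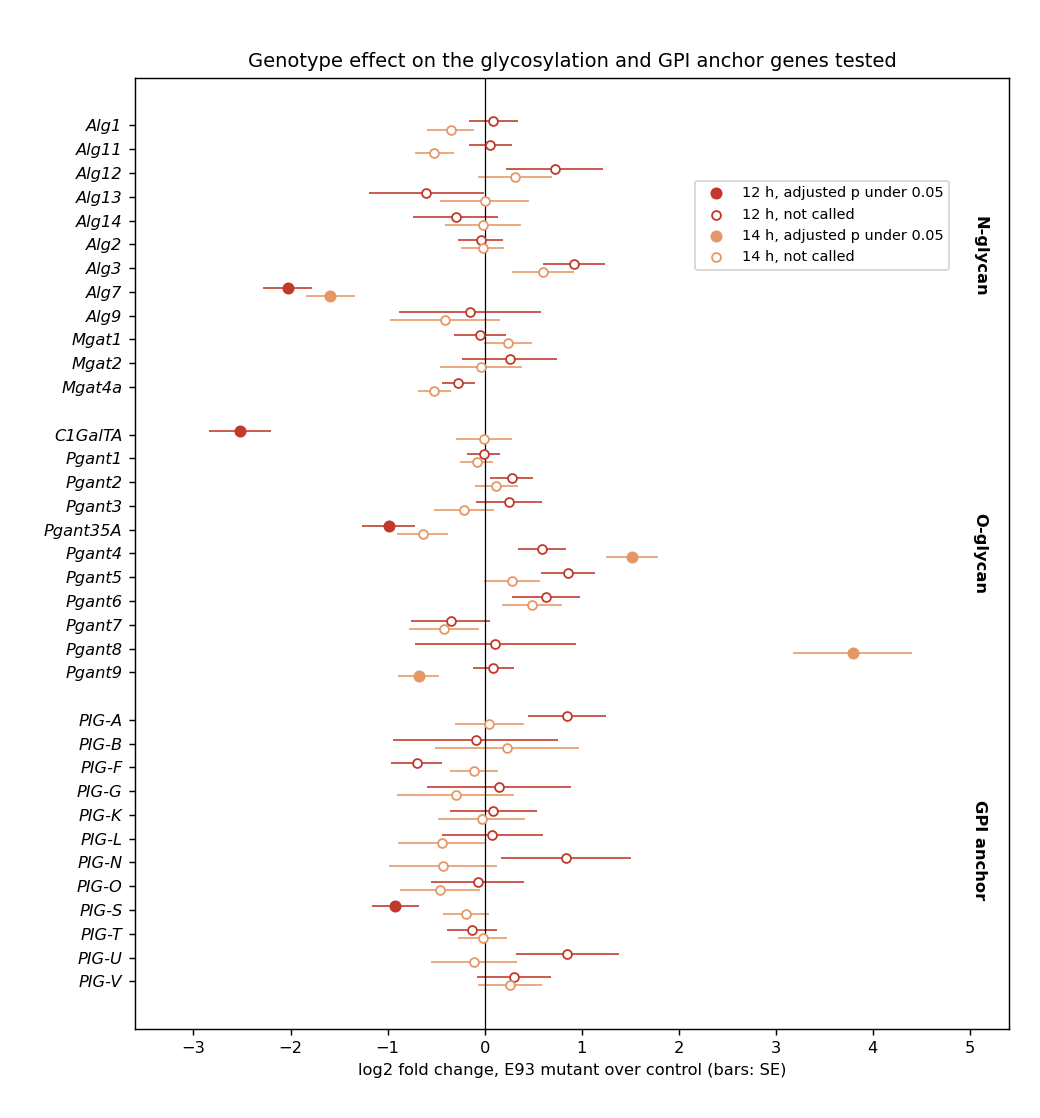
Log2 fold change of mutant over control glands (x axis) for the 35 N-glycan, O-glycan and GPI anchor genes tested, with bars of 1 SE; red is 12 h, orange 14 h, and filled points passed the test. Most points lie near 0, while Alg7 is low at both times, C1GalTA is at -2.52 at 12 h and -0.01 at 14 h, and Pgant8 is at 3.79 at 14 h.

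Among the N-glycan genes, the enzymes of the dolichol-linked precursor come first. Alg7 encodes the N-acetylglucosamine phosphotransferase that starts the precursor, and it was lower in mutants at both times. The gene (FBgn0032477) lies on chromosome 2L at 13179247 to 13183495 on the plus strand of the BDGP6.54 annotation. At 12 h it stood at 7.85, 4.58 and 6.77 CPM in mutants against 24.8, 25.7 and 28 CPM in controls. The groups did not overlap, and the lowest control was above 3 times the highest mutant. This 4.09-fold difference was -2.03 on the log2 scale (SE 0.25; adjusted p = 0.000228 by edgeR). At 14 h Alg7 had 3.16, 3.3 and 3.84 CPM in mutants against 9.02, 8.37 and 13.9 CPM in controls, again without overlap, or -1.59 on the log2 scale (SE 0.25; adjusted p = 0.000933 by edgeR). Both calls held under 22 alternative settings of the analysis, with log2 fold changes of -2.30 to -1.88 at 12 h and -1.73 to -1.34 at 14 h. The change in genotype effect between the times was 0.44 (SE 0.35) and was not called (adjusted p = 0.681 by edgeR).

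The neighbourhood of Alg7 bears on how its counts are read. Mgat3 (FBgn0051849), which by name encodes the N-acetylglucosaminyltransferase that in mammals adds the bisecting residue of N-glycans, is a gene of 1 exon on the minus strand, at 13180398 to 13182596. It lies whole within intron 4 of Alg7, which is 2511 bases long, 2 bases from the exon on one side and 310 bases from the exon on the other. The exons of Alg7 and Mgat3 share 0 bases. Mgat3 had 1, 8 and 7 reads in 12 h mutants against 5945, 10658 and 8840 in 12 h controls, and 8, 6 and 6 reads in 14 h mutants against 359 to 395 in 14 h controls. Alg7 had 49, 32 and 42 reads in 12 h mutants against 194, 178 and 162 in 12 h controls, and 31, 30 and 41 in 14 h mutants against 91, 80 and 125 in 14 h controls. Both genes were thus high in the same libraries, by very different factors: the log2 fold change of Mgat3 was -10.58 (SE 0.48) at 12 h and -5.86 (SE 0.42) at 14 h, with edgeR adjusted p of 9.98e-08 and 2.18e-06.

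Alg7 counts amounted to 1.67% to 3.26% of Mgat3 counts in 12 h controls and 22.3% to 31.9% in 14 h controls. In mutants Mgat3 had at most 8 reads in any library. Alg7 was at 3.43 ± 0.358 CPM in 14 h mutants and 6.4 ± 1.67 CPM in 12 h mutants (SD, n = 3 each), a log2 fold change of -0.89 (edgeR adjusted p = 0.0141). That call was lost without the 12 h mutant replicate 1 (-0.72, edgeR adjusted p = 0.063) and with library size alone as the scaling (-0.40, 0.226). It was also lost without both libraries high in gut markers (-0.70, 0.131), and without these and the 12 h control replicate 1 (-0.72, 0.109). Rsph1, which overlaps 2.95% of Alg7 exon bases on the same strand, stood at 0 CPM in the 3 libraries of 12 h mutants against 1.54 to 2.74 CPM in 12 h controls, and at 0 to 0.204 CPM in 14 h mutants against 0.941 to 1.59 CPM in 14 h controls. Whether the library kit and the counting kept strand is not given in the sources used here, and the part of reads from either neighbour in the Alg7 counts was not tested.

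**Figure D2:**
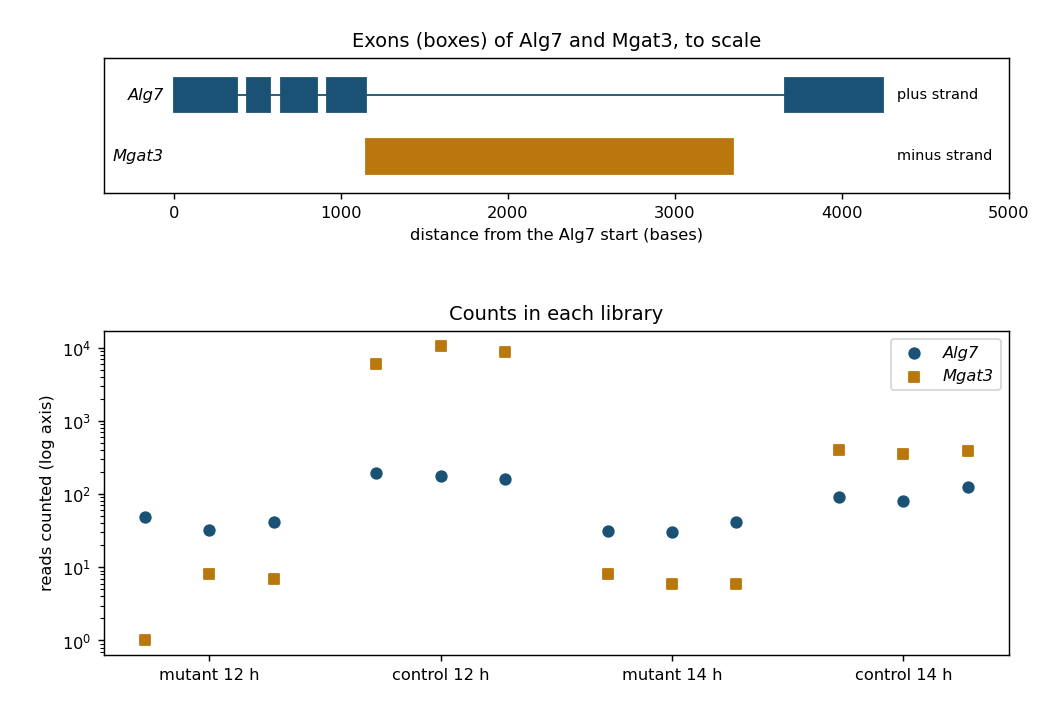
Top, exons of Alg7 and Mgat3 as boxes against distance from the Alg7 start in bases; Mgat3 fills most of Alg7 intron 4 and touches no exon. Bottom, reads counted per library (log axis) in each group: Mgat3 spans 1 to 10658 reads and Alg7 30 to 194, and both are higher in controls than in mutants of the same time.

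After Alg7, the complex named for Alg13 and Alg14 adds another N-acetylglucosamine, and Alg1, Alg2 and Alg11 add mannoses on the cytosolic face, roles best known from yeast. None of these 5 was called between genotypes at either time. Alg1, at a mean of 8.35 RPKM over the 12 libraries, had 16, 18.6 and 9.84 CPM in 12 h mutants against 10.1, 16.4 and 15.4 CPM in 12 h controls, and 10.3, 12.1 and 10.8 CPM in 14 h mutants against 13.5, 14.6 and 14.1 CPM in 14 h controls. Its log2 fold changes were 0.09 and -0.35, and the groups overlapped at 12 h but not at 14 h. Alg11 had 5.29, 7.02 and 9.35 CPM in 12 h mutants against 6.53, 7.36 and 6.92 CPM in 12 h controls. In 14 h glands Alg11 had 10.3, 10.9 and 11.9 CPM in mutants against 13.8 to 17.4 CPM in controls, with no overlap (log2 fold change -0.52, edgeR adjusted p = 0.114), and was called (adjusted p = 0.0253) in a fit of the 14 h groups only.

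The luminal mannosyltransferases Alg3, Alg9 and Alg12 extend the precursor inside the endoplasmic reticulum, and Alg10 adds the last glucose. Alg3 stood at 3.46 ± 0.936 CPM in 12 h mutants and 1.83 ± 0.362 CPM in 12 h controls (SD, n = 3 each), a log2 fold change of 0.92 that was not called (adjusted p = 0.0695 by edgeR). Alg12 was low, at 1.44, 0.43 and 1.29 CPM in 12 h mutants against 0.897, 0.433 and 0.519 CPM in 12 h controls, and 2.24, 2.64 and 2.06 CPM in 14 h mutants against 1.59, 1.99 and 2 CPM in 14 h controls. Neither Alg12 difference was called, at log2 fold changes of 0.72 and 0.31. Alg10 did not pass the filter, with 2 to 17 reads per library.

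Of the Golgi enzymes that start and branch complex N-glycans, Mgat4a had the highest mean of the N-glycan genes over the 12 libraries, at 9.03 RPKM, but did not lead in each group: Alg2 was at 8.25 and Mgat4a at 6.57 RPKM in 14 h mutants, and Alg7 at 16.8 and Mgat4a at 11 RPKM in 12 h controls. It had 44.1, 49 and 33.2 CPM in 12 h mutants against 46.9, 47.7 and 57.6 CPM in 12 h controls, and the groups overlapped. Later, at 14 h, Mgat4a had 34.4, 30.1 and 26.4 CPM in mutants against 42.3, 45 and 43.3 CPM in controls. The 14 h groups did not overlap, but the log2 fold change of -0.52 (SE 0.17) missed the threshold (edgeR adjusted p = 0.0634); 5 of 22 alternatives called it, among them DESeq2 (adjusted p = 0.0313) and a fit of the 14 h groups only (0.0118). Mgat1 and Mgat2, which add the residues that open the branches, were not called. The 11 N-glycan genes not called ranged from -0.60 to 0.92 at 12 h and from -0.52 to 0.60 at 14 h on the log2 scale. Summed over the 13 N-glycan genes, the level was 94.9 ± 8.19 CPM in 12 h mutants and 122 ± 9.19 in 12 h controls, and 87.6 ± 0.653 CPM in 14 h mutants and 114 ± 4.87 in 14 h controls (SD, n = 3 each). Most of both gaps lay in 2 genes. Mean CPM of Alg7 was 6.4 in mutants against 26.2 in controls at 12 h, and 3.43 against 10.4 at 14 h. For Mgat4a it was 42.1 against 50.7 at 12 h, and 30.3 against 43.5 at 14 h. The median log2 fold change of the 12 N-glycan genes tested was -0.04 at 12 h and -0.03 at 14 h.

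The largest called differences at each time were in O-glycan genes. C1GalTA (FBgn0032078, 2L, 8943455 to 8951216, minus strand), the core 1 galactosyltransferase, had the highest mean of the 46 genes over the 12 libraries, at 16.3 RPKM. By group, its level was 4.51 RPKM in 12 h mutants, where Pgant4 was at 30.6, and 25.9 RPKM in 12 h controls, and it was 17.3 RPKM in 14 h mutants, where Pgant8 was at 29.8, and 17.4 RPKM in 14 h controls. At 12 h it stood at 11.5, 10.5 and 10.2 CPM in mutants against 73.4, 50.3 and 61.3 CPM in controls. The mutant libraries lay close together and far below the controls. The difference of 5.75-fold was -2.52 on the log2 scale (SE 0.32; adjusted p = 0.000273 by edgeR). In 14 h glands C1GalTA stood at 21, 60.3 and 42 CPM in mutants against 40.7, 38.7 and 44.4 CPM in controls. There the mutants scattered to either side of the controls, and the log2 fold change was -0.01 (SE 0.29).

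The change in the C1GalTA genotype effect between the times was itself called, at 2.52 (SE 0.42, edgeR adjusted p = 0.00714), where 2.72% of all genes were called, 1.75% upward and 0.963% downward. It was the 1 gene of the 36 called in that comparison by edgeR. The 12 h difference kept its call under 22 alternatives (-2.67 to -2.44) and the change between times under 21 (2.07 to 2.83). Among the 14 h mutants, C1GalTA was highest in replicate 2, the library with 100 CPM of gut markers, and lowest in replicate 1, with 2.35 CPM of them. Without both libraries high in gut markers the change between times was 2.19 (edgeR adjusted p = 0.0327) and the 14 h difference was -0.39 (adjusted p = 0.472). At 12 h the mutant library with 206 CPM of gut markers had 11.5 CPM of C1GalTA, next to 10.5 and 10.2 CPM in the other 12 h mutants. These gut marker sums are nearly all mesh, Ssk and Tsp2A, as given above. The part of cells from outside the gland, gut or other, in the C1GalTA counts was not tested.

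The 10 Pgant genes encode the transferases that start O-glycans. Pgant8 (FBgn0036529, 3L, 15683872 to 15686598, plus strand) showed the largest rise of the 36 genes in 14 h mutants. It had 15.6, 112 and 69.3 CPM in 14 h mutants against 4.36, 4.39 and 5.44 CPM in 14 h controls. Each mutant library was above each control, but the mutants themselves differed more than 7-fold. The log2 fold change was 3.79 (SE 0.61, edgeR adjusted p = 0.00114), and it was 3.17 without the 14 h mutant replicate 2 (adjusted p = 0.00499) and 4.25 without replicate 1 (7.36e-05).

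At 12 h Pgant8 was low in each group, at 0.321, 1.57 and 2.58 CPM in mutants against 0.897, 1.59 and 1.73 CPM in controls (log2 fold change 0.11, SE 0.83). The 12 h mutant replicates 1, 2 and 3 had 206, 21.6 and 1.94 CPM of gut markers for those Pgant8 values. At 14 h, mutant replicates 1, 2 and 3 had 2.35, 100 and 6.74 CPM of gut markers for 15.6, 112 and 69.3 CPM of Pgant8. The part of cells from outside the gland, gut or other, in the Pgant8 counts was not tested. The change in genotype effect between the times was 3.68 (SE 1.03) and missed the threshold (edgeR adjusted p = 0.0981); DESeq2 called it (0.00283), as did edgeR with no filter (0.0218) and without the 14 h mutant replicate 1 (4.14; 0.011), and the other 18 alternatives did not. Without both libraries high in gut markers it was 2.59 (0.309). CG34452, which overlaps 10.6% of Pgant8 exon bases on the other strand, had 0 reads in each library. How reads over both genes were counted is not given in the sources used here, so this 0 is not read as a level.

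Pgant4 (FBgn0051956, 2L, 3472603 to 3475338, plus strand), known in flies to glycosylate the secretory cargo receptor Tango1 and protect it from cleavage, had a mean of 14.8 RPKM over the 12 libraries. In 14 h glands Pgant4 had 18.3, 12.2 and 16 CPM in mutants against 5.85, 4.29 and 6.11 CPM in controls, with no overlap. The log2 fold change was 1.52 (SE 0.27, edgeR adjusted p = 0.00215), 2.86-fold, and the call held under 22 alternatives (1.37 to 1.66). At 12 h Pgant4 had 70.8, 99.5 and 63.2 CPM in mutants against 35.9, 55.5 and 63.7 CPM in controls. The lowest of those controls is the replicate that stood apart; the log2 fold change of 0.59 (edgeR adjusted p = 0.129) became 0.33 without it, and also 0.33 without mutant replicate 2. The change in genotype effect between the times, 0.92, was not called (edgeR adjusted p = 0.267).

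Pgant9 (FBgn0050463, 2R, 16673235 to 16732916, minus strand), whose product in flies acts on mucins of the salivary glue, had 52.3, 59.8 and 58.5 CPM in 14 h mutants against 82.4, 103 and 87.6 CPM in 14 h controls. The groups did not overlap and the log2 fold change was -0.68 (SE 0.21, edgeR adjusted p = 0.0449). This call was close to the threshold and held under 11 of 22 alternatives; it was lost on leaving out any of the 3 mutant or 3 control libraries of 14 h (adjusted p = 0.0796 to 0.172) or the 12 h mutant replicate 1 (0.0534), with log2 fold changes of -0.75 to -0.58. At 12 h Pgant9 had 30.4, 24.3 and 28.9 CPM in mutants against 36.1, 22.1 and 20.1 CPM in controls, which overlapped. The change in its genotype effect between the times, -0.77, was not called (edgeR adjusted p = 0.253), and without the 12 h control replicate 1 it was -1.06 and called (0.0121).

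Pgant35A (FBgn0001970, 2L, 14359252 to 14361411, plus strand), required in flies for tracheal tubes, had 5.77, 11.3 and 4.84 CPM in 12 h mutants against 14.6, 16.2 and 13 CPM in 12 h controls. The groups did not overlap and the log2 fold change was -0.99 (SE 0.27, edgeR adjusted p = 0.0293). Without mutant replicate 2, the highest of the mutants, it was -1.49. The call was lost without mutant replicate 1 (-0.84, adjusted p = 0.104), mutant replicate 3 (-0.77, 0.0817) or control replicate 2 (-0.93, 0.0795), and in a fit of the 12 h groups only (0.103). It was also lost without both libraries high in gut markers (-0.84, edgeR adjusted p = 0.132), and without these and control replicate 1 (-0.88, 0.136). Pgant35A at 14 h had 9.18, 10.7 and 8.15 CPM in mutants against 14.6, 15 and 14 CPM in controls, without overlap (log2 fold change -0.64, edgeR adjusted p = 0.133). The antisense gene asRNA:CR43463 covers 93.5% of Pgant35A exon bases on the other strand and had 0 reads in each library. Strand setting and treatment of shared reads are not given in the sources used here, so this 0 is not read as a level. The effect of the overlap on the counts and RPKM of Pgant35A was not tested.

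Pgant5 had 46, 51.3 and 39.7 CPM in 12 h mutants against 14.1, 23.1 and 38.4 CPM in 12 h controls, where the 12 h control replicate 1 was again the lowest. The log2 fold change of 0.86 (SE 0.28) just missed the threshold (edgeR adjusted p = 0.0546), and without that replicate it was 0.51 (0.154). Without control replicate 3, the highest control, it was 1.29 and called (0.00579). In 14 h glands it had 13.2, 13.4 and 12 CPM in mutants against 9.81, 11.4 and 10.4 CPM in controls. Pgant7, of a subgroup that prefers peptides already carrying a sugar, had 3.69, 4.58 and 5.97 CPM in 12 h mutants against 11, 4.18 and 2.6 CPM in 12 h controls, and 15.6, 16.5 and 13.6 CPM in 14 h mutants against 19.8, 20 and 21.3 CPM in 14 h controls. Neither Pgant7 difference was called, at log2 fold changes of -0.35 and -0.42 (edgeR adjusted p = 0.616 and 0.52). Without the 12 h control replicate 1 the 12 h value was 0.41. Of the alternatives, only a fit of the 14 h groups called the 14 h difference (edgeR adjusted p = 0.0375). Pgant1, Pgant2, Pgant3 and Pgant6 were not called between genotypes. The 9 O-glycan genes not called at 12 h ranged from -0.35 to 0.86 on the log2 scale, and the 8 not called at 14 h from -0.64 to 0.49. Summed over the 11 O-glycan genes, the level was 207 ± 19.6 CPM in 12 h mutants and 214 ± 11.1 in 12 h controls, and 255 ± 71.7 CPM in 14 h mutants and 227 ± 10.2 in 14 h controls (SD, n = 3 each).

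**Figure D3:**
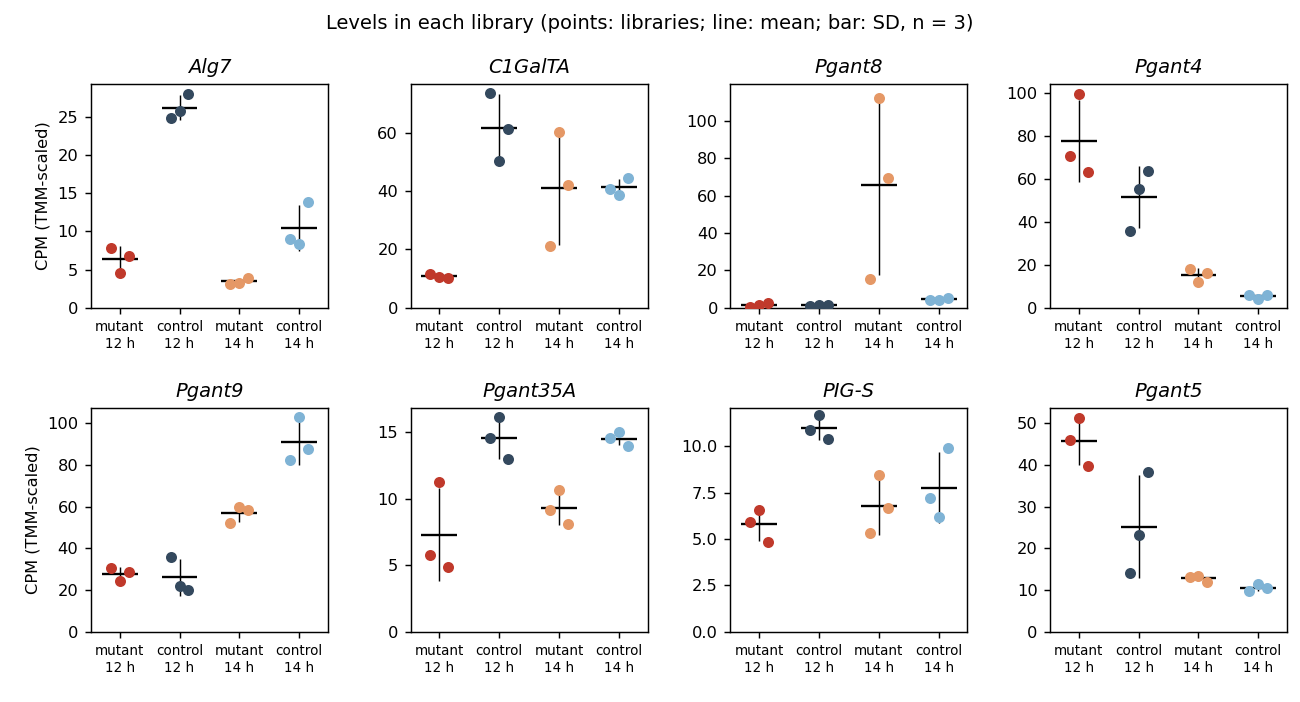
CPM in each library for 8 genes, by group (x axis) with mutants left of controls of the same time; points are libraries, horizontal lines group means and vertical bars SD (n = 3). Alg7 is lower in mutants at both times, C1GalTA in 12 h mutants (10.2 to 11.5 against 50.3 to 73.4 CPM), and Pgant8 is spread from 15.6 to 112 CPM in 14 h mutants.

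Because each Pgant enzyme has its own preferred sites, the makeup of the family was set out as shares of the summed RPKM of its 10 genes. At 12 h Pgant4 led in each group, with 49.6% ± 5.56 in mutants and 41.3% ± 7.55 in controls (SD, n = 3 each), and Pgant35A held 5.37% ± 1.81 in mutants and 14% ± 2.31 in controls. In 14 h mutants Pgant8 held 15%, 55.3% and 45.1%, against 4.39%, 4.07% and 5.28% in 14 h controls. In 14 h controls Pgant9 held the largest share, 31.7% ± 2.44, against 14.2% ± 3.79 in 14 h mutants. Pgant4 held 9.81% ± 5.05 in 14 h mutants and 4.55% ± 0.964 in 14 h controls. Shares sum to a fixed total, so a high Pgant8 share lowers the others. The summed RPKM was 61.2 ± 8.14 in 12 h mutants and 48.6 ± 5.13 in 12 h controls, and 69.7 ± 22.5 in 14 h mutants and 47 ± 1.94 in 14 h controls.

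**Figure D4:**
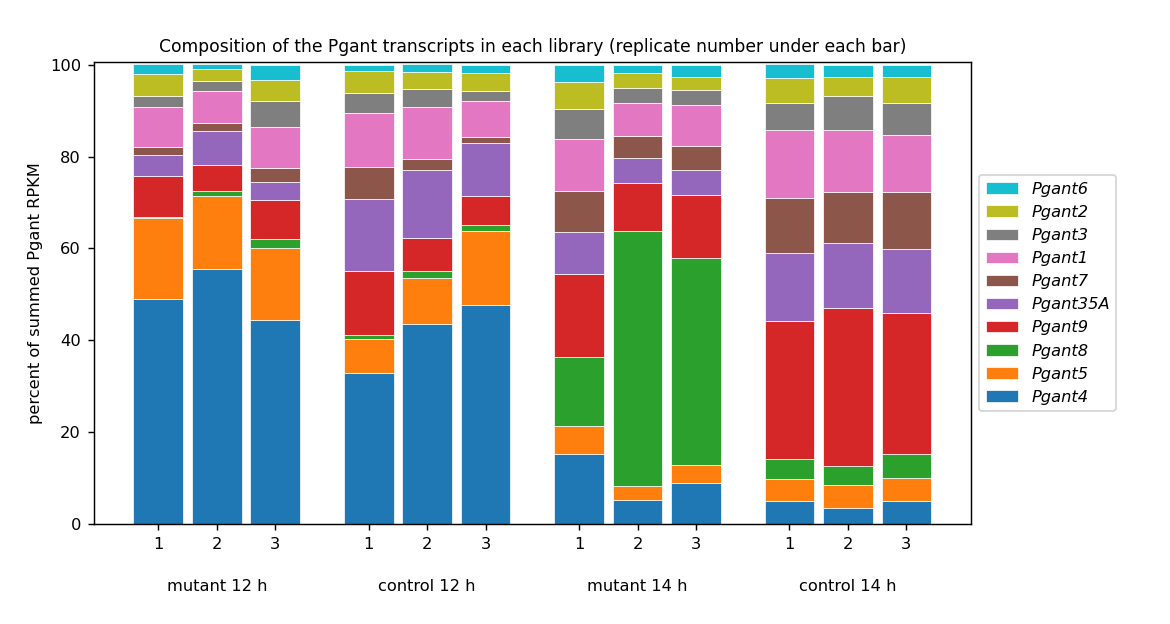
Share of the summed RPKM of the 10 Pgant genes (y axis, percent) in each of the 12 libraries, grouped by genotype and time with replicate numbers below the bars. Pgant4 is the widest band at 12 h, Pgant9 in 14 h controls (29.9% to 34.4%), and Pgant8 in 14 h mutant replicates 2 and 3 (55.3% and 45.1%) but not in replicate 1 (15%).

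Of the 12 GPI anchor genes tested, PIG-S was called at 12 h and 0 at 14 h. The transamidase that attaches the anchor is known, from human cells, to hold the subunits PIG-K, PIG-S, PIG-T and PIG-U together with GAA1. PIG-S (FBgn0265190, 3R, 24913216 to 24917864, minus strand) had 5.93, 6.59 and 4.84 CPM in 12 h mutants against 10.9, 11.7 and 10.4 CPM in 12 h controls. The groups did not overlap, and the log2 fold change was -0.92 (SE 0.24, edgeR adjusted p = 0.0236). The call was lost without control replicate 2 (-0.90, adjusted p = 0.0568), mutant replicate 1 (-0.94, 0.0608) or mutant replicate 3 (-0.82, 0.0671). It was also lost without both libraries high in gut markers (-0.94, edgeR adjusted p = 0.0653), and without these and control replicate 1 (-0.99, 0.0643). At 14 h PIG-S had 5.3, 8.46 and 6.65 CPM in mutants against 7.23, 6.17 and 9.88 CPM in controls, which overlapped.

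PIG-S shares 8.84% of its exon bases with sud1 on the same strand, which stood at 1.57 to 2.74 CPM in 12 h mutants against 4.18 to 5.54 CPM in 12 h controls, and the part of sud1 reads in the PIG-S counts was not tested. The antisense gene asRNA:CR44267, over 20.7% of PIG-S exon bases, had 0 reads in each library, which for the same reason as for asRNA:CR43463 is not read as a level. PIG-U had 2.4, 2.29 and 2.42 CPM in 12 h mutants against 2.43, 1.15 and 0.173 CPM in 12 h controls, and 3.06, 3.74 and 4.21 CPM in 14 h mutants against 3.07, 4.81 and 4 CPM in 14 h controls. Neither PIG-U nor PIG-K nor PIG-T was called between genotypes.

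PIG-F, which in human cells supports the enzymes that add ethanolamine phosphate, had the highest mean of the GPI anchor genes over the 12 libraries, at 5.51 RPKM, though in 12 h controls PIG-S was higher, at 6.23 RPKM with PIG-F at 5.76. It had 3.04, 3.15 and 4.84 CPM in 12 h mutants against 6.66, 6.2 and 5.02 CPM in 12 h controls, where the groups came close without overlap (log2 fold change -0.70, SE 0.26, edgeR adjusted p = 0.0922). Without mutant replicate 3 it was -0.95 and called (0.0391). PIG-F at 14 h had 7.24, 6.38 and 5.43 CPM in mutants against 6.64, 5.54 and 8.33 CPM in controls. The other tested genes were PIG-A and PIG-L, which act in the opening steps, the mannosyltransferases PIG-V and PIG-B, and PIG-G, PIG-N and PIG-O, which add ethanolamine phosphate. None of them was called, and the 12 tested GPI genes ranged from -0.46 to 0.26 on the log2 scale at 14 h. DESeq2 called 0 of the 12 at 14 h too. Several had few reads, with SE at 14 h of 0.74 for PIG-B and 0.60 for PIG-G, so changes in these may have been missed.

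The 9 GPI genes that did not pass the filter were PIG-C, PIG-H, PIG-M, PIG-P, PIG-Q, PIG-Wa, PIG-Wb, PIG-X and PIG-Z, with at most 14 reads in any library. PIG-M, PIG-P and PIG-Z had 0 reads in all libraries, and for each of them 100% of exon bases are shared with other genes on the same strand: CG42379, CG42380 and CG42381 for PIG-M, Tcs6 for PIG-P and CG45069 for PIG-Z. How reads shared between genes were counted is not given in the sources used here, so these counts of 0 are not read as levels. Summed over the 21 GPI genes, the level was 33 ± 5.82 CPM in 12 h mutants and 37.7 ± 6.79 in 12 h controls, and 45.1 ± 3.9 CPM in 14 h mutants and 48.1 ± 2.49 in 14 h controls (SD, n = 3 each).

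More of these genes were called with time than between genotypes, but in no higher share than all genes. In controls 6 of the 36 were higher at 14 h and 3 lower, where 43.2% of all genes were called, 20.8% higher and 22.4% lower; the share of the 36 called was 25%. By class, 2 N-glycan genes were higher and 1 lower, 3 O-glycan genes higher and 2 lower, and 1 GPI gene higher and 0 lower. In mutants 8 were higher and 4 lower, where 45.1% of all genes were called, 22.6% higher and 22.4% lower, and the share of the 36 called was 33.3%. The median of the 36 was 0.45 in controls and 0.52 in mutants, against 0.12 and 0.14 over all genes. With library size alone as the scaling, 22 were higher and 3 lower in controls and 17 higher and 2 lower in mutants, while the median over all genes moved to 0.64 and 0.65, so directions with time are relative to the scaling. Summed markers of other cell types moved with time as well, over the libraries of both genotypes. The 8 fat body genes summed to 417 to 679 CPM at 14 h against 141 to 255 at 12 h. The 6 hemocyte genes summed to 14.4 to 20.6 CPM at 14 h against 7.79 to 11.9 at 12 h. For 8 muscle genes the sum was 174 to 290 CPM at 14 h against 1087 to 1359 at 12 h, with 333 in the 12 h control replicate 1. Nearly all of the muscle sum was 1 gene, bt, at 149 to 271 CPM at 14 h against 1051 to 1337 at 12 h. In the 12 h control replicate 1 bt was at 310 CPM. Act57B, the next highest muscle gene, was at 10.4 to 22.9 CPM at 14 h against 11.5 to 30 at 12 h. The part of other cell types in the time differences was not tested.

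Pgant4 fell furthest with time, to 5.41 ± 0.983 CPM in 14 h controls against 51.7 ± 14.3 in 12 h controls, a 9.52-fold difference (-3.25 on the log2 scale, SE 0.28; adjusted p = 5.15e-06 by edgeR). Pgant5 stood at 10.5 ± 0.802 CPM in 14 h controls against 25.2 ± 12.3 in 12 h controls (-1.25, SE 0.29; -1.61 without the 12 h control replicate 1 and -0.83 without replicate 3). In the other direction, Pgant9 was at 91.1 ± 10.8 CPM in 14 h controls against 26.1 ± 8.74 in 12 h controls (1.80, SE 0.22). Pgant7 was at 20.4 ± 0.824 CPM in 14 h controls against 5.93 ± 4.47 in 12 h controls (1.75, SE 0.38; 2.51 without the 12 h control replicate 1). Pgant3 was also called higher in 14 h controls (0.93, SE 0.33), a call kept under 17 of 22 alternatives and lost without the 12 h control replicate 3 or the 14 h control replicates 2 or 3. With these, 5 of the 11 O-glycan genes were called with time in controls, 45.5%, near the 43.2% of all genes. Adjusted p-values of these calls were at most 0.0373 by edgeR, and those for Pgant4, Pgant5, Pgant7 and Pgant9 held under 22 alternatives.

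The same 4 genes were called in the same directions in mutants. Pgant4 was at 15.5 ± 3.06 CPM in 14 h mutants against 77.9 ± 19.1 in 12 h mutants (log2 fold change -2.33, SE 0.26) and Pgant9 at 56.9 ± 4 against 27.9 ± 3.17 CPM (1.03, SE 0.21). In mutants 2 further O-glycan genes were called higher at 14 h: Pgant8, at 65.6 ± 48.3 CPM in 14 h mutants against 1.49 ± 1.13 in 12 h mutants (5.44, SE 0.71), and C1GalTA, at 41.1 ± 19.7 against 10.7 ± 0.726 CPM (1.94, SE 0.31; 1.55 without the 14 h mutant replicate 2). In controls C1GalTA was at 41.3 ± 2.9 CPM at 14 h against 61.7 ± 11.5 at 12 h (-0.58, not called) and Pgant8 at 4.73 ± 0.615 against 1.4 ± 0.446 CPM (1.76, SE 0.72, edgeR adjusted p = 0.0648). That rise in controls was called under 8 of 22 alternatives, among them DESeq2 (0.0282), the control groups alone (0.00429) and the fit without both libraries high in gut markers (0.0305). The difference in time course is the change in genotype effect given above, called for C1GalTA and not for Pgant8.

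Among N-glycan genes in controls, Alg7 fell to 10.4 ± 3.01 CPM at 14 h against 26.2 ± 1.65 at 12 h (log2 fold change -1.33, SE 0.24, edgeR adjusted p = 0.000761), and Mgat3 fell with it by 4.99 on the log2 scale. Alg11 was at 15.8 ± 1.85 CPM in 14 h controls against 6.94 ± 0.413 in 12 h controls (1.19, SE 0.21). Alg12 was at 1.86 ± 0.235 CPM against 0.616 ± 0.247 (1.54, SE 0.45, edgeR adjusted p = 0.0155), and lost its call without the 12 h control replicate 2 (1.32, 0.0709), 12 h control replicate 3 (1.44, 0.0528) or 14 h control replicate 2 (1.49, 0.0506). Of the GPI genes, PIG-U was at 3.96 ± 0.871 CPM in 14 h controls against 1.25 ± 1.13 in 12 h controls (1.59, SE 0.50, edgeR adjusted p = 0.0217). It was 2.43 without the 12 h control replicate 1 and 1.12 without replicate 3, and the call was lost without the 12 h control replicate 2 (1.5, 0.0689) or the 14 h control replicates 2 (1.43, 0.0785) or 3 (1.59, 0.0527).

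In mutants the N-glycan genes Alg11 (0.61), Alg12 (1.14) and Alg13 (1.66) were higher and Alg7 (-0.89) and Mgat4a (-0.47) lower at 14 h, and PIG-F (0.79) was the 1 GPI gene called. Several of these calls were fragile: Alg12 kept its call under 4 of 21 alternatives, Alg11 and Mgat4a under 9 of 22, PIG-F under 14 of 22 and Alg13 under 14 of 21. The Alg13 call was lost without either of 12 h mutant replicates 1 and 2 or 14 h mutant replicates 2 and 3. Without both libraries high in gut markers none of the 13 N-glycan genes then tested was called by edgeR, where 2374 of 7830 genes were called. Leaving out 1 library moved Alg11 over 0.43 to 0.77, Alg12 over 0.71 to 1.43, Mgat4a over -0.68 to -0.39 and PIG-F over 0.65 to 0.97. Alg13, the small catalytic partner of Alg14, stood at 2.63 ± 1.13 CPM in 14 h mutants against 0.824 ± 0.646 in 12 h mutants, and these groups overlapped. Alg-2 was not called in any of these comparisons.

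Other genes of the same pathways were read from 7 lists, whose counts are set beside the 15.8% of all genes called at 12 h (7.94% higher and 7.87% lower) and the 15.2% at 14 h (8.29% higher and 6.91% lower). The lists are short, and nothing particular to a list is read from its count. In the oligosaccharyltransferase, which moves the finished precursor onto proteins, 0 of 7 genes were called at 12 h and 0 of 7 at 14 h (medians 0.15 and 0.18). Of the lipid-linked precursor genes outside the Alg names 0 of 7 tested were called at either time, and of the GPI remodelling genes 0 of 5. Among 13 genes of trimming and folding control, 1 was higher at 12 h, and 1 was higher and 1 lower at 14 h. Among 11 tested branching and capping genes, 2 were lower at 12 h, and 1 was higher and 1 lower at 14 h. Among 12 tested genes of other O-linked sugars, 1 was higher and 3 lower at 12 h, and 1 was higher and 2 lower at 14 h.

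After Mgat3, the largest change among the listed genes was in mmy, which encodes the pyrophosphorylase that makes UDP-N-acetylglucosamine, the sugar donor of Alg7 and the Mgat enzymes and the source of the donor for Pgant enzymes. Of 11 tested sugar nucleotide genes, 2 were higher at 12 h and 0 lower, and 2 were higher at 14 h and 1 lower, beside the same shares of all genes. mmy had 1198, 1543 and 1166 CPM in 12 h mutants against 465, 515 and 629 CPM in 12 h controls (log2 fold change 1.28, SE 0.17, edgeR adjusted p = 0.00049). Later, at 14 h, mmy had 1419, 1346 and 1219 CPM in mutants against 255, 235 and 241 CPM in controls (2.45, SE 0.18, edgeR adjusted p = 2.5e-06). The groups were far apart at both times, and both calls held under 22 alternatives. The genotype ratio was 2.24-fold larger at 14 h than at 12 h (adjusted p = 0.0214 by edgeR), a call that held under 10 of 21 alternatives and was lost on leaving out any of 9 libraries or both libraries high in gut markers.

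Gfat2, an aminotransferase at the entry of the same route, was at 7.48 ± 0.611 CPM in 12 h mutants and 2.65 ± 0.804 in 12 h controls, and 8.24 ± 1.09 CPM in 14 h mutants and 2.97 ± 0.149 in 14 h controls, which was 1.47 on the log2 scale at each time (edgeR adjusted p = 0.00223 and 0.0012). UGP, which makes UDP-glucose, was lower at 14 h, at 4.49, 6.27 and 4.78 CPM in mutants against 9.41, 10 and 9.77 CPM in controls (-0.91, SE 0.21, edgeR adjusted p = 0.01).

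The glucuronyltransferases moved in opposite directions. GlcAT-P was higher in mutants by 1.65 at 12 h and 1.72 at 14 h on the log2 scale (edgeR adjusted p = 0.000482 and 0.000104), with 12, 15.2 and 11.7 CPM in 14 h mutants against 4.06, 4.39 and 3.33 CPM in 14 h controls. GlcAT-S was lower by -1.18 and -1.59 (edgeR adjusted p = 0.011 and 0.00169), with 7.34, 9.23 and 10.8 CPM in 14 h mutants against 29.9, 29.5 and 23.1 CPM in 14 h controls. Eogt, which adds O-linked N-acetylglucosamine to secreted epidermal growth factor repeats, was lower by -0.94 and -1.01 (edgeR adjusted p = 0.0145 and 0.00629), and Oga, which removes the nuclear and cytosolic form of that sugar, by -0.63 at 12 h (0.029). The 12 h calls of Eogt, GlcAT-S and Oga held under 18, 20 and 14 of 22 alternatives; Eogt and Oga lost theirs without mutant replicate 1, and Oga also without control replicate 1.

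Of the remaining called genes, GCS2beta, a subunit of glucosidase II, was higher at 12 h (log2 fold change 1.35, edgeR adjusted p = 0.00871). The mannosidase gene alpha-Man-Ia had 38.5, 33 and 31.6 CPM in 14 h mutants against 10.8, 13.7 and 15.3 CPM in 14 h controls (1.37, SE 0.31), and alpha-Man-IIb had 2.65, 2.75 and 1.03 CPM in 14 h mutants against 7.53, 8.58 and 5.66 CPM in 14 h controls (-1.76, SE 0.43). Both calls were lost without the 14 h control replicate 1, and that of alpha-Man-IIb also without control replicate 2 or mutant replicate 3. The sialyltransferase gene SiaT was lower at 12 h (-1.80, edgeR adjusted p = 0.0123), with 3.8 ± 1.45 CPM in mutants and 13.3 ± 7.66 CPM in controls, the highest of them being the 12 h control replicate 1 at 21.6 CPM. Without that replicate the value was -1.31 (edgeR adjusted p = 0.0337). The SiaT call held under 19 of 22 alternatives and was lost in a fit of the 12 h groups only, without both libraries high in gut markers (-1.56, 0.0669), and without these and that replicate (-1.06, 0.101). Hexo1, a hexosaminidase gene, was higher at 14 h by 0.57 (edgeR adjusted p = 0.0459), a call that held under 3 of 22 alternatives.

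**Figure D5:**
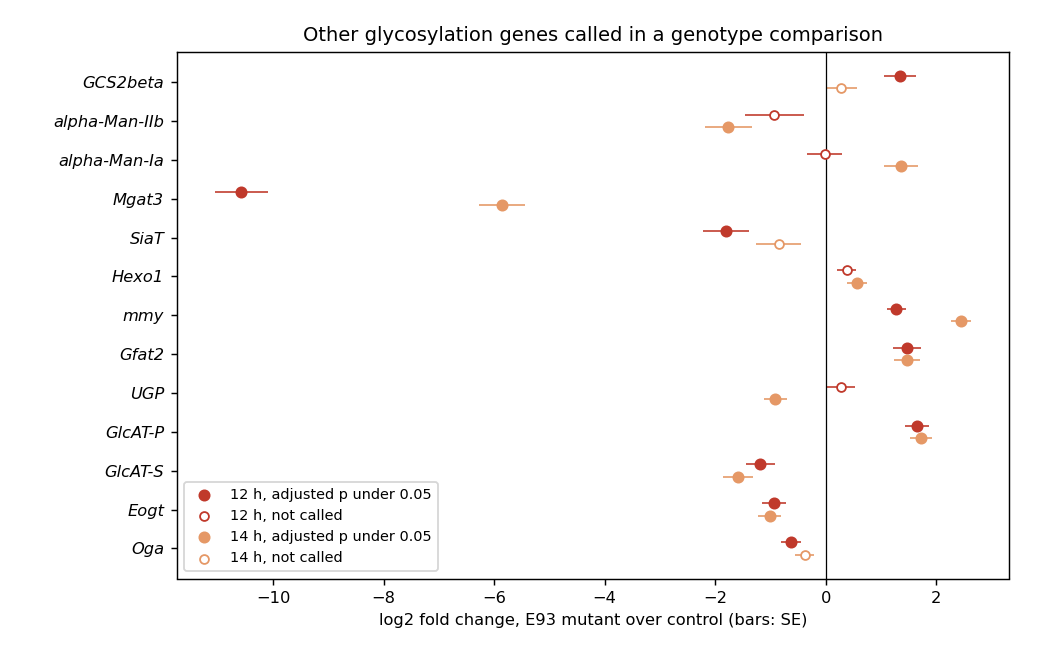
Log2 fold change of mutant over control glands (x axis, bars of 1 SE) for the 13 other glycosylation genes named in the text; red is 12 h, orange 14 h, and filled points passed the test. Mgat3 lies at -10.58 and -5.86, mmy at 1.28 and 2.45, and GlcAT-P and GlcAT-S on opposite sides of 0.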

How the data were processed

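The authors deposited whole-number read counts for 17807 genes in 12 libraries; the submitters' processing notes name build BDGP6 and, with no role or order, STAR 2.7.6a, cutadapt 1.16, DESeq2 1.30.1 and featureCounts 1.6.3. Annotation release, strand setting and treatment of reads with several matches are not given in the sources used here. Symbols were matched for 17710 genes and not for 97; positions, exon lengths and exon overlaps come from the Ensembl BDGP6.54 annotation, whose release may differ from the authors'.

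Counts were filtered with filterByExpr (7584 genes left), scaled by TMM and fitted in edgeR 4.0.16 (R 4.3.3) with 4 group means over 12 libraries, leaving 8 residual degrees of freedom. Contrasts were tested by the quasi-likelihood F test with Benjamini-Hochberg adjustment. Dividing the absolute log2 fold change by the root of F gave SE, which is approximate. RPKM is the scaled CPM per kilobase of merged exons.

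Alternatives were other scalings (RLE; library size alone; TMM leaving out the 20 most abundant genes), other filters (none; at least 5 CPM in 3 or more libraries), DESeq2 1.42.0, a replicate block, only the compared groups in the fit, each library left out, both libraries high in gut markers left out, and these with the 12 h control replicate 1 left out. The steps were also run on simulated data, with no time effect and fewer changed genes than were called between genotypes here. Error rates for these data are not taken from that run.

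Genes got values per library if called between genotypes or in the change of genotype effect, if called in the control time course at an absolute log2 fold change of at least 1, or if among the 2 highest of their class by RPKM; from each pathway list up to 4 genes with the smallest p among those called between genotypes were named, and Mgat3 always. Alg3, Alg13, Pgant3, the time course values of genes outside these criteria and the overlapping neighbours were named after their values were seen. The genes, lists, markers and alternatives were chosen with earlier results of these data known. One gene of the sugar nucleotide list is not reported here.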

Additional observations from a re-analysis of the deposited data

Results flagged for a closer look

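C1GalTA met the rule for a genotype effect that differs between the 2 times, tested as an interaction. Its log2 fold change of mutant over control was -2.52 at 12 h and -0.01 at 14 h, a difference of 2.52 (SE 0.42, edgeR adjusted p = 0.00714). The 3 libraries of 12 h mutants were at 10.2 to 11.5 CPM against 50.3 to 73.4 CPM in 12 h controls, and the 14 h mutants were at 21, 60.3 and 42 CPM against 38.7 to 44.4 CPM in 14 h controls. The difference was 2.13 to 2.83 on leaving out 1 library and kept its call each time.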

How the results depend on the processing

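Over the 28 called values of the 15 genes given per library, 612 values under alternatives were obtained: 528 kept direction and call, 83 lost the call and 1 reversed. That 1 was Mgat4a with time in mutants, at 0.06 with library size alone in place of -0.47; this scaling moved the median time change of all genes to 0.64 in controls and 0.65 in mutants (0.12 and 0.14 with TMM). Alg7 in both genotype comparisons, C1GalTA at 12 h and between times, and Pgant4 and Pgant8 at 14 h kept their calls under each alternative run. Of the 36 genes, the number called at 12 h was 2 in place of 4 without both libraries high in gut markers, and 2 without these and the 12 h control replicate 1 (2 to 5 on leaving out 1 library, 2 without the 12 h mutant replicate 1 or control replicate 2). At 14 h it was 8 in place of 4 with the compared groups only (3 to 5 on leaving out 1 library). With time in controls it was 25 in place of 9 with library size alone (6 to 11 on leaving out 1 library). With time in mutants it was, in place of 12, 7 with the compared groups only, 19 with library size alone, 6 without both libraries high in gut markers and 6 without these and the control replicate (7 to 16 on leaving out 1 library; 7 without the 12 h mutant replicate 1 or 14 h mutant replicate 2). For the change between times it was 2 in place of 1 with DESeq2 and 2 with no filter (1 to 2 on leaving out 1 library, 2 without the 12 h control replicate 1 or 14 h mutant replicate 1). Where no reason shows in the construction of an alternative, the cause was not tested. A fit of 2 groups cannot give the change between times. The labels do not say whether replicate numbers pair libraries. Over 18 same-number pairs, correlations of deviations from group means ran from -0.257 to 0.238. These cannot settle the pairing, since libraries with different numbers were not compared. With a replicate block 4 genes were called at 12 h. Depth limits the 10 genes that did not pass the filter, with at most 17 reads in any library. Among tested genes it also limits those with few reads, such as PIG-N (1 to 17 per library), Alg12 (3 to 24), Alg13 (1 to 35) and PIG-U (1 to 46).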
